A study of Mus musculus with 180 samples.

Results

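Endothelial-like cells of mouse embryoid bodies are described here. They were the cells of 1 single-cell library in which at least 3 of 5 endothelial genes, Cdh5, Pecam1, Icam2, Esam and Plvap, each had 2 or more UMIs (unique molecular identifiers, 1 per captured RNA molecule). A cell was kept when it had at least 1000 detected genes and at most 15% of its UMIs from mitochondrial genes. Of 20134 cell barcodes, 17789 were kept, and 1741 of these (9.79%) were endothelial-like, which left 16048 other kept cells. The 5 genes that chose the cells, and every difference between the chosen cells and the rest, are given as descriptions with no test.

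Embryoid bodies are free-floating aggregates in which embryonic stem cells differentiate without directed patterning. Here the stem cells first passed through an epiblast-like state for 48 h, were aggregated at 750 cells per body for 48 h, and were then kept in rotating culture for 48 h. Dissociated bodies of each sample were marked with a lipid-anchored oligonucleotide hash, pooled, and run on 1 lane of a droplet chip with version 3 chemistry. The hash table had 12 columns, named B1, B2, B3, D1, D2, D31, D32, D331, D332, D333, C1 and CB, whereas the labels speak of barcodes 1 to 10. The labels give the strains of the pool as a mixture of B6 and D2 and tie no column to a strain, a line or a culture, so the columns are compared by their first letter as names only, and the column called D2 is not thereby the strain D2. No treatment, transgene or deletion is named for these samples. A cell belonged to a column when its largest hash count was at least 2 times the second, which placed 15568 kept cells and 1522 endothelial-like cells. The column was the unit of every test. All columns shared 1 lane, and whether columns such as D31 and D32 were separate cultures could not be read from the labels, so p-values measure the spread between columns, which may be technical.

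Endothelial cells line vessels and, in the early embryo, arise from mesoderm that expresses the VEGF receptor Kdr. The ETS factor Etv2 starts the programme and is then turned off, while Erg, Fli1 and the SoxF factors Sox7, Sox17 and Sox18 sustain it. Arterial cells are known for Notch signalling through Dll4, Notch1, Notch4, Hey1 and Hey2, venous cells for Nr2f2 and Ephb4, and lymphatic and some early yolk sac endothelium for the hyaluronan receptor Lyve1. ETS factors recognise sequences with a GGAA core, which many endothelial promoters hold.

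The RefSeq promoter stretches of 3 genes that the results below turn on are shown to let a reader see such cores, namely Emcn, which had the largest ratio to other cells among genes with a UMI in at least 25% of the endothelial-like cells, the Notch ligand gene Dll4, and Etv2. Each is the 250 bases before the RefSeq start (GRCm38.p6), written 5′ to 3′ on the gene's own strand, with GGAAG or its reverse complement in capitals.
Emcn, chr3:137340828-137341077, plus strand: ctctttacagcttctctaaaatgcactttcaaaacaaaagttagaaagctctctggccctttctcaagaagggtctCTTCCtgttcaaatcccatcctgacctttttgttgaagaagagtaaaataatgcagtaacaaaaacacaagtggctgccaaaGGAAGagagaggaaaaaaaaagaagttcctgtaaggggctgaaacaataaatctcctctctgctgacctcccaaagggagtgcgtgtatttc
Dll4, chr2:119325534-119325783, plus strand: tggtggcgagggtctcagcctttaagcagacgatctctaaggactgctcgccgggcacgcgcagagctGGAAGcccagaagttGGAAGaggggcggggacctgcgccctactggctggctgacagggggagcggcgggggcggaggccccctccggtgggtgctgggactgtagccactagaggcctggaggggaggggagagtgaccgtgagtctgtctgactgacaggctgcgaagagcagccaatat
Etv2, chr7:30635853-30636102, minus strand: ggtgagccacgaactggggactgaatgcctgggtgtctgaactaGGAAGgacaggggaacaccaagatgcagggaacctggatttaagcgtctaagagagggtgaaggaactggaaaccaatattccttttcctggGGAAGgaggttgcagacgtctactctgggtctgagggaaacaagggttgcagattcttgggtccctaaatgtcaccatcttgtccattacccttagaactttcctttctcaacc
In GENCODE M21 the Etv2 stretch lay outside every annotated gene, the last 11 bases of the Emcn stretch belonged to the first exon of Emcn, and the Dll4 stretch lay within Gm14207, a gene on the opposite strand whose exon covered 31 of its bases. Each stretch held GGAAG 2 times, counting both strands, and none held CCGGAA. The ACAAT letters that SOX factors bind occurred 1 time in the Emcn stretch and not in the other two, and the GATA letters AGATAA in none. Over all 32851 RefSeq windows of 27025 genes, 64.1% held GGAAG, 12.03% CCGGAA, 27.7% ACAAT and 9.99% AGATAA, so GGAAG is a common sequence. The 17 windows of the 11 endothelial transcription factor genes with an entry, of 19 listed, held them in 64.7%, 5.88%, 17.6% and 11.8% of cases. The 17 windows of 14 endothelial receptor and adhesion genes held them in 70.6%, 5.88%, 35.3% and 0%. None of the 5 rule genes had an entry. A match is only a description of letters.

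The name was checked on genes the rule did not use, and the cells had the broad endothelial set. The receptor genes Kdr, Tek and Tie1, the junction gene Cldn5, the secreted factor gene Egfl7 and the ETS factor genes Erg and Fli1 were all higher than in the other kept cells, in each of the 12 columns. Kdr averaged 2.997 UMIs per 10000 of a cell's UMIs in endothelial-like cells and 0.498 in the rest. Tie1, a receptor of vessel walls, averaged 1.20 against 0.0302, and Tek, the angiopoietin receptor, 0.686 against 0.0385. Erg stood at 0.149 against 0.00686 and Fli1 at 0.820 against 0.113. Egfl7 was widespread, at 7.45 against 1.03. The median depth was 35452 UMIs in endothelial-like cells (2246 to 152868) and 38195 in the others.

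Among the 7907 genes with a UMI in at least 25% of the endothelial-like cells, the 20 with the largest ratio of mean UMIs per 10000 included 4 genes of the rule. Emcn, a sialomucin of capillaries and veins, led with 0.731 against 0.0110, a ratio of 66.2. The lectin-like receptor gene Cd93 followed among genes outside the rule with a ratio of 60.5, Dll4 with 56.0, Gimap6 with 52.9, Robo4, a guidance receptor of endothelium, with 48.8, and Gimap4 with 47.7. Gja4, which encodes the gap junction protein connexin 37, had 2.15 against 0.0523. Sox18 had 0.408 against 0.0110 and Cldn5 had 0.625 against 0.0168. Every one of these was higher in the endothelial-like cells of all 12 columns. Ramp2, the partner of the adrenomedullin receptor, had 10.4 UMIs per 10000 against 0.436 and a UMI in 99.6% of endothelial-like cells.

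By list, 19 of the 20 endothelial receptor and adhesion genes stood more than 2 times higher in endothelial-like cells, with a median ratio of 21.2, and 16 of the 19 endothelial transcription factor genes did, with a median of 3.34. Over all 18864 genes with a UMI in both, 2275 stood more than 2 times higher, 3649 more than 2 times lower, and the median ratio was 0.891. Of the 14 arterial genes 9 were more than 2 times higher, and of the 6 venous genes 5 were. The arterial chemokine receptor gene Cxcr4 went the other way, at 0.0424 against 0.141, and was lower in all 12 columns. The lymphatic genes Prox1, a transcription factor, and Pdpn, podoplanin, were at 0.0717 against 0.103 and 0.0304 against 0.171, so the lymphatic list did not move as 1 block.

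Genes of the early haemato-vascular programme separated less sharply. Etv2 was at 0.418 UMIs per 10000 against 0.272, higher in 10 of the 12 columns, and a UMI of it was found in 45.9% of endothelial-like and 32.8% of other cells. Tal1, which with Lmo2 and Gata2 directs blood and endothelial progenitors, stood at 0.608 against 0.281. Runx1, required for blood to emerge from endothelium, was lower in the endothelial-like cells of every column, at 0.165 against 0.414. Itga2b, the integrin CD41 of early blood progenitors, was higher at 0.511 against 0.0901.

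Most lists of other lineages were lower in endothelial-like cells, and the megakaryocyte list was not. All 8 definitive endoderm genes, all 6 visceral endoderm genes, all 6 pericyte genes, 9 of 10 mesoderm and mesenchyme genes, 7 of 9 cardiac muscle genes and 8 of 9 erythroid genes stood more than 2 times lower than in the other cells. Krt8, a keratin of simple epithelium, was at 1.39 against 9.62, and Hand1, a transcription factor of extraembryonic and lateral mesoderm, at 1.04 against 5.55. Of the 6 megakaryocyte genes, 4 stood more than 2 times higher and none more than 2 times lower, with a median ratio of 2.26. Among them were Itga2b, which is also on the blood progenitor list, Pf4 (0.0399 against 0.0160, higher in 8 of 12 columns) and Gp9 (0.00839 against 0.00411, higher in 3). Of the 9 macrophage genes, 5 stood more than 2 times lower and 1 more than 2 times higher, with a median ratio of 0.498. Their median share of cells with a UMI was 0.632% in endothelial-like and 0.393% in other cells. The leucocyte gene Ptprc and, from the macrophage list, C1qa had no UMI in any endothelial-like cell.

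To set shares of cells side by side at equal depth, each cell was thinned to 5000 UMIs, which left out 9 endothelial-like and 416 other cells. Kdr then had a UMI in 71.0% of 1732 endothelial-like cells (exact 95% interval 68.8 to 73.1, counting error only) and in 17.2% of 15632 others. Tie1 was seen in 38.5% against 1.10%, Gja4 in 36.1% against 1.68%, and Emcn in 20.6% against 0.345%. Hbb-bh1, the embryonic beta-like globin that red cells make in abundance, had 5.83% (4.77 to 7.04) against 6.34% (5.96 to 6.73), so its share in endothelial-like cells did not exceed that in the rest. C1qa was detected in none of the thinned cells of either kind, which allows a share of cells with a UMI of up to 0.213% in endothelial-like cells and 0.0236% in the others (exact bounds on detection, not on cells that express the gene). Unthinned, a Kdr UMI was in 99.0% against 49.0% and a Tie1 UMI in 85.5% against 5.43%.

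**Figure D1:**
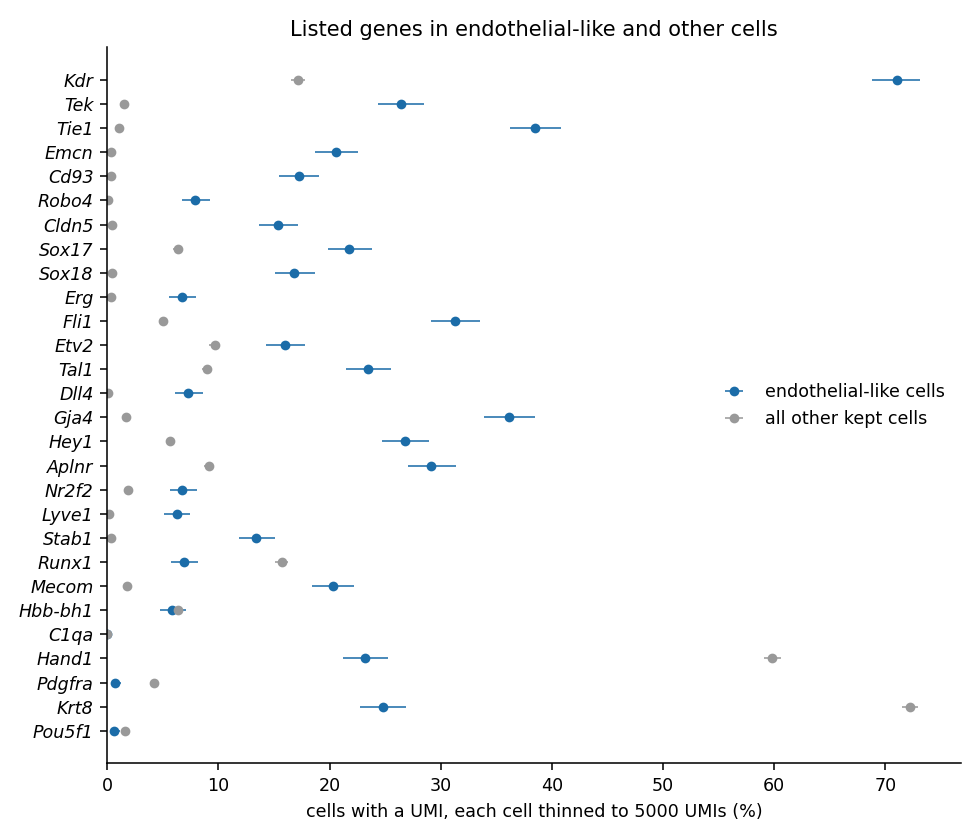
Share of cells with a UMI of each listed gene after every cell was thinned to 5000 UMIs (x axis, percent), for 1732 endothelial-like cells (blue) and 15632 other kept cells (grey), with exact 95% binomial intervals for counting error. Kdr sits at 71.0% against 17.2%, whereas Krt8 and Hand1 are lower in the endothelial-like cells and Hbb-bh1 overlaps.

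The threshold cut a continuous range. Of the kept cells, 13771 had none of the 5 rule genes at 2 or more UMIs, 1830 had 1, 447 had 2, 345 had 3, 558 had 4 and 838 had all 5. Just outside, the cells with 2 rule genes averaged 1.87 UMIs per 10000 of Kdr, 3.55 of Ramp2 and 0.404 of Tie1, and just inside, the cells with 3 averaged 2.41, 6.10 and 0.619. Etv2 hardly differed across that line, at 0.767 outside and 0.765 inside, and was lowest among members with all 5 rule genes, at 0.239. Hand1 was 1.80 outside and 1.35 inside, and Krt8 2.35 and 1.44. In the members, Cdh5 passed the 2-UMI mark in 94.0%, Esam in 86.2%, Pecam1 in 86.0%, Plvap in 81.4% and Icam2 in 80.7%, and at least 1 UMI of each was present in 10.0%, 6.58%, 24.5%, 11.1% and 5.49% of the other cells.

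Within the endothelial-like cells, Emcn was found less often beside Etv2 at the thinned depth. Of 277 cells with an Etv2 UMI, 5.05% (2.79 to 8.33) also had Emcn, against 23.5% (21.3 to 25.8) of the 1455 cells without, and the share was lower in all 12 columns. Sox17 was found in 10.8% of cells with Etv2 and 23.8% of cells without, lower in 11 of the 12 columns. Tal1 went with Etv2 instead, at 33.9% against 21.5%, higher in all 12. These are shares of cells of 1 library and were not tested.

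Gja4 was found more often beside the arterial genes Dll4 and Hey1, and the arterial connexin gene Gja5 more often beside Gja4. Of 126 cells with a Dll4 UMI, 72.2% had Gja4, against 33.3% of cells without Dll4, and all 5 columns with at least 5 such cells went that way. Hey1, a Notch target gene, had Gja4 beside it in 57.3% of 464 cells against 28.4%, in 9 of 10 columns. Gja5 was found in 5.27% of 626 cells with Gja4 and 0.452% of 1106 cells without, higher in 6 of 12 columns and lower in none. Aplnr, the apelin receptor of veins and of early mesoderm, did not separate from Gja4 by column: the shares were 30.1% and 38.6% over all cells, with 6 columns higher and 6 lower.

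Endothelial-like cells made up a larger share of the B and C columns than of the D columns. They were 199 of 1103 kept cells in B1 (18.04%, exact 95% interval 15.8 to 20.4), 171 of 826 in B2 (20.7%) and 211 of 1112 in B3 (18.97%). In the 7 D columns the share ran from 3.26% in D331 to 6.52% in D1, and in the C columns it was 15.9% of 1034 cells in C1 and 22.9% of 1440 in CB. No D column reached any B or C column. The means were 19.2% ± 1.35 (SD, n = 3) in B, 4.44% ± 1.19 (n = 7) in D and 19.4% ± 4.99 (n = 2) in C.

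The B share was 4.33 times the D share (two-sided exact permutation test over columns, p = 0.0167, the smallest that 3 against 7 allows; 0.05 after Benjamini-Hochberg adjustment over the 3 pairs of letters, which is not under 0.05). C was 4.36 times D (exact p = 0.0556, the smallest that 2 against 7 allows, adjusted 0.0833), and C and B were at a ratio of 1.01 (exact p = 1). With the 5 columns whose names start with D3 counted as 1, the B to D ratio was 3.62 (exact p = 0.1, adjusted 0.3). After thinning to 5000 UMIs the rule found far fewer cells, 4.99% in B and 0.221% in D, a ratio of 22.5. Each D column then held only 0 to 5 such cells, so the size of that ratio is uncertain. A share counts cells among recovered cells and holds no number of cells per body.

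**Figure D2:**
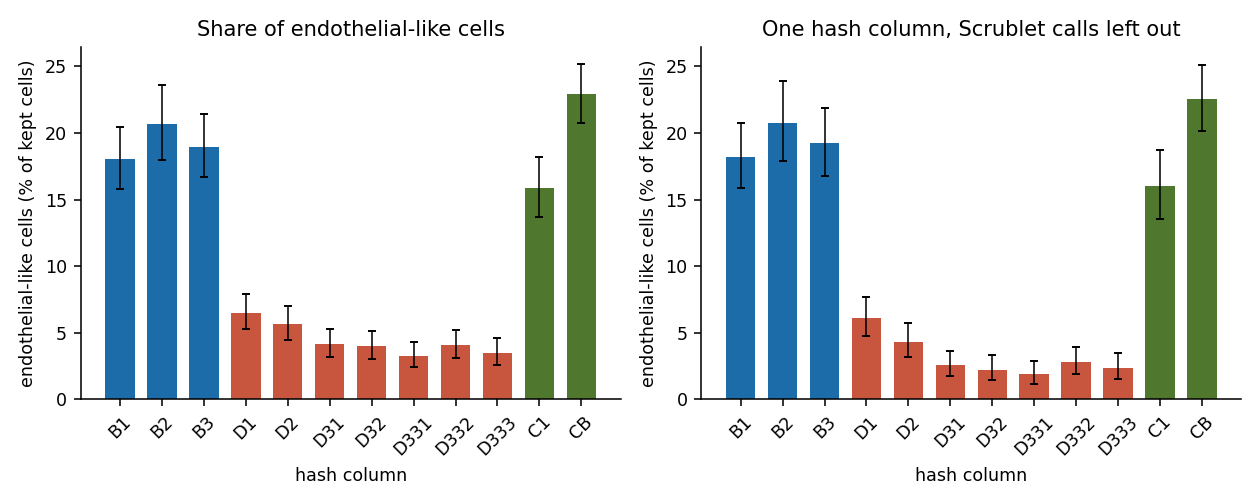
Endothelial-like cells as a percent of kept cells in each of the 12 hash columns, with exact 95% binomial intervals for counting error, for all cells with a hash (left) and for cells with 1 hash column above background and no Scrublet mark (right). All 7 D columns lie at or below 6.52%, under the 15.9% of C1, the lowest of the others.

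The D columns also differed in signs of droplets with more than 1 cell, and these values belong beside every difference between letters below. Endothelial-like cells had a median of 50010 UMIs in D (mean over columns), 32112 in B and 26544 in C, whereas the other cells had 39444, 37136 and 34706. Scrublet, a doublet caller, marked 28.2% ± 9.005 of the D endothelial-like cells (11.3% in D1 to 38.3% in D331) and 2.49% of those in B and 7.29% of those in C, against 5.31%, 2.72% and 4.28% of the other cells. A second hash column lay above 5 times its background in 44.7% of the D endothelial-like cells and 21.7% of the other D cells. In B these were 9.58% and 10.1%, and in C 20.5% and 19.5%. A B hash was above its background in 29.7% of the D endothelial-like cells and 8.53% of the other D cells. All 5 rule genes passed in 64.4% of the B, 30.6% of the D and 44.8% of the C endothelial-like cells.

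For that reason each comparison was repeated on single-hash cells, those with 1 hash column above background and no Scrublet mark. These left 150 to 184 endothelial-like cells in each B column, 20 to 66 in each D column, 130 in C1 and 256 in CB. Among them the share was 18.2%, 20.8% and 19.3% in B1, B2 and B3, 1.87% to 6.10% in the D columns, and 15.99% and 22.5% in C1 and CB. The B to D ratio was then 6.11 and the C to D ratio 6.06, with the same exact p-values. The part of mixed droplets that carry a single hash was not tested.

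Markers of other lineages moved with the letters too. The summed level of the 10 mesoderm and mesenchyme genes in endothelial-like cells was 1.34 to 1.49 UMIs per 10000 in the B columns, 3.61 to 5.86 in D and 2.25 to 2.44 in C, and that of the 8 definitive endoderm genes was 0.973 to 1.58, 1.92 to 6.90 and 1.74 to 2.75. The 9 erythroid genes summed to 0.625 to 1.12 in B, 0.485 to 4.88 in D and 5.11 to 8.52 in C, where the other cells held 37.8 to 46.7. C1qa and Adgre1 were at 0 in the endothelial-like cells of every column. The part of these markers in the differences between letters was not tested.

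Between letters, endothelial-like UMIs were summed per column and tested over all genes with edgeR's quasi-likelihood test, and levels below are UMIs per 10000 of those sums. Against D, 21.5% of 10327 genes were called higher in B and 20.2% lower, 41.7% in all, at a Benjamini-Hochberg adjusted p under 0.05. Among single-hash cells 23.2% were higher and 21.3% lower. In cells with all 5 rule genes at 2 or more UMIs, 1223 of 8473 genes were higher in B and 1151 lower, a smaller part of the genes tested. Calls were thus common, and a count of listed genes is to be read against the values of its own set of cells. Lack of overlap between columns is given below as a description of single genes. Its share over all genes tested is not given, so it may be common too. The median log2 difference over all genes was -0.01.

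Endothelial receptor and adhesion genes were higher in B than in D. Of 19 tested, 18 were called higher and none lower, with a median log2 difference of 1.07, and the same counts, with a median of 1.09, came from single-hash cells. Arhgap29 was the 1 not called. In cells with all 5 rule genes at 2 or more UMIs, 17 of 19 were higher and none lower, with a median of 0.87. The rule genes themselves, which chose the cells at a fixed count of 2 UMIs, had a median of 1.29. Endothelial-like cells were deeper in D, and the part of a fixed count in these differences was not tested.

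Emcn, the sialomucin, was at 0.795 UMIs per 10000 in B1, 0.873 in B2 and 0.512 in B3, and at a lowest of 0.0769, a median of 0.182 and a highest of 0.248 in the D columns. No D column reached a B column. The log2 difference was 2.18 (SE 0.23, adjusted p = 7.1e-07), and 3.64 in single-hash cells.

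Robo4 was at 0.148, 0.152 and 0.152 in B and at 0.0205 to 0.0636 in D, with a log2 difference of 1.92 and 3.63 in single-hash cells. Cd34, a sialomucin of endothelium and progenitors, was at 0.810, 0.744 and 0.736 in B and had a median of 0.243 in D (0.172 to 0.333), a log2 difference of 1.69 (SE 0.12). Cldn5, of tight junctions, was at 0.983, 0.894 and 0.810 against a D median of 0.282, a log2 difference of 1.65. For these 3 genes the groups did not overlap. Cd34 and Cldn5 were also higher in the other cells of B (log2 2.02 and 2.12), and Robo4 hardly so (0.22).

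Among the growth factor receptor genes the differences were smaller. Kdr was at 3.01, 2.98 and 2.90 in B and at 1.86 to 2.48 in D, a log2 difference of 0.54 (SE 0.07, adjusted p = 1.4e-05). Tie1 was at 1.14, 1.06 and 1.01 against a D median of 0.528, a log2 difference of 1.07, and Eng, the endoglin co-receptor of TGF-beta signalling, had 1.25. In the other cells Kdr ran the opposite way, with a log2 difference of -1.36. The difference between these 2 contrasts was not tested.

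The transcription factors split. Of 19, 11 were called higher in B, among them Sox17, Klf2, Bcl6b, Fli1 and Sox18, and 3 were lower, Etv2, Tal1 and Lyl1, which act early in the haemato-vascular lineage. The median log2 difference was 0.38. Single-hash cells gave 7 higher and 6 lower of 18, with a median of 0.14. Cells with all 5 rule genes gave 12 higher and 2 lower of 18, with a median of 0.62, so the split moved with the choice of cells. Sox17 was at 0.703, 0.668 and 0.595 in B and had a D median of 0.277 (0.177 to 0.352), a log2 difference of 1.33 (SE 0.14, adjusted p = 8.2e-07) and 2.20 in single-hash cells. Klf2, a factor known to respond to flow, was at 1.16, 1.20 and 1.00 against a D median of 0.332, with a log2 difference of 1.43. No D column reached the B columns for either gene.

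Etv2 was the reverse. It stood at 0.328, 0.226 and 0.285 in B and at 0.619 to 1.05 in D, with a median of 0.841, and no column overlapped. The log2 difference was -1.58 (SE 0.15, adjusted p = 2.1e-07), and -2.12 in single-hash cells. Tal1 was at 0.528, 0.545 and 0.487 in B against a D median of 0.939, a log2 difference of -0.84 (SE 0.11), and -1.30 in single-hash cells. Etv2 was lower in the other cells of B as well (log2 -1.08), and so was Tal1 (-2.19). Sox7 and Erg, at 0.38 and 0.66, were no longer called in single-hash cells (0.04, adjusted p = 0.77, and 0.33, adjusted p = 0.071).

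Of the 12 arterial genes tested, 9 were higher in B and 1, Hey2, was lower, with a median log2 difference of 0.75. Single-hash cells gave 9 and 1 of 10, with a median of 1.57. Dll4, the ligand that starts arterial Notch signalling, was at 0.184, 0.167 and 0.0950 in B and at 0.0138 to 0.0708 in D, a log2 difference of 1.81 (SE 0.26, adjusted p = 2.9e-05) and 2.79 in single-hash cells. Hey1, its target, was at 0.967, 0.713 and 0.593 against a D median of 0.271, a log2 difference of 1.59 and 2.10 in single-hash cells. Notch4, an endothelial Notch receptor gene, had 1.70. Hey2, a relative of Hey1, was at 0.0672, 0.0483 and 0.04996 in B and at 0.0893 to 0.170 in D, a log2 difference of -1.19 (SE 0.19). Thus the 2 Hey genes ran in opposite directions, each without overlap between columns. In cells with all 5 rule genes, 7 of 10 arterial genes were higher in B and none lower, with a median of 0.69. Hey2, low in count, was therefore not called lower there. Gja4 was at 1.38, 1.46 and 1.17 against a D median of 0.903 (log2 0.62), and this fell to 0.29 in single-hash cells.

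All 6 venous genes tested were higher in B, by a median of 0.67, and 5 of 6 in single-hash cells. Nr2f2, the nuclear receptor of venous identity, was at 0.173, 0.181 and 0.171 in B and at 0.0552 to 0.136 in D (log2 0.90, SE 0.18), and Ephb4, the venous ephrin receptor gene, had a log2 difference of 0.61. Aplnr, at 0.40, was not called in single-hash cells (0.05, adjusted p = 0.69). Arterial and venous genes therefore both stood higher in B.

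The paired scavenger receptor genes of sinusoidal endothelium differed in direction. Stab1 was at 0.331, 0.309 and 0.286 in B and at 0.0633 to 0.102 in D, a log2 difference of 1.92 (SE 0.12, adjusted p = 1.4e-09), and 2.90 in single-hash cells. Stab2 was at 0.00448, 0.00345 and 0.00366 in B and at 0.0379 to 0.0699 in D, a log2 difference of -3.56 (SE 0.36), and also lower in the other cells of B (log2 -4.52). No column of either gene overlapped between the letters.

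Vessel wall and cushion genes differed as well. Basement membrane genes were higher in B for 8 of 10 and lower for none, with a median of 0.60. In the other cells 9 of 10 were higher in B and 1 lower, with a median of 0.53. There 70.1% of all 14738 genes tested were called in either direction. Nid1, a nidogen that links laminin and collagen IV, was at 1.07, 1.05 and 1.20 in B against a D median of 0.400 (log2 1.43, SE 0.07), and Sparc, a matrix protein, at 16.9, 18.1 and 18.5 against 8.99 (log2 1.06). Of 7 endocardial genes 2 were higher and 4 lower. Npr3, the natriuretic clearance receptor, was at 0.0627, 0.0432 and 0.0366 in B and at 0 to 0.0201 in D (log2 2.80, SE 0.43), and Cdh11, a cadherin of mesenchyme, was at 0.0388, 0.0501 and 0.04996 against a D median of 0.300 (log2 -2.72).

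Blood-related genes were few and mixed. Of 9 haemogenic and haematopoietic progenitor genes, 2 were higher in B, Mecom (log2 1.57) and Itga2b (0.62), and 4 lower, Runx1, Gfi1, Gfi1b and Myb. Single-hash cells gave 3 higher and 4 lower of 8, and cells with all 5 rule genes 2 higher and none lower of 5. Runx1 was at 0.0881, 0.128 and 0.217 in B and at 0.144 to 0.290 in D, with overlap, and a log2 difference of -0.66 (SE 0.23, adjusted p = 0.027). Gfi1b, which represses the endothelial programme as blood forms, had -2.94 (SE 0.58) from levels of at most 0.0870.

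Genes of mesoderm and endoderm were lower in the B endothelial-like cells, by an amount that moved with the choice of cells. Of 10 mesoderm and mesenchyme genes, 8 were called lower and 1, Col3a1, higher, with a median of -1.75. Single-hash cells gave 4 lower and 2 higher of 8 and a median of -0.88, and cells with all 5 rule genes gave 5 lower and 1 higher of 8 and a median of -1.65. Hand1 was at 0.297, 0.368 and 0.284 in B and at 2.01 to 3.83 in D, a log2 difference of -3.13 (SE 0.16), and -2.30 in single-hash cells. Foxf1, of splanchnic mesoderm, had -2.86 and -1.58. Krt8 was at 0.539, 0.751 and 0.724 against a D median of 3.18 (0.923 in D1 to 3.89), with a log2 difference of -2.10, and only -0.41 in single-hash cells. Krt18, its partner keratin, had -1.84, which was not called in single-hash cells (-0.35, adjusted p = 0.069). Of 4 pericyte genes 2 were lower in B, whereas in single-hash cells 2 of 3 were higher.

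Of the 8 proliferation genes, 6 were lower in B and none higher, with small differences (median -0.33). Top2a, the topoisomerase of dividing cells, had a log2 difference of -0.50 and Mki67 of -0.33. In single-hash cells 7 of 8 were lower. The other cells had -0.27 and -0.36 for these 2 genes.

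Outside the lists, the genes with the largest differences that held in every column were mostly low in count, and those below also differed in the other cells. Ctse, the protease cathepsin E, was at 0, 0.00173 and 0.00244 UMIs per 10000 in B and at 0.0301 to 0.0562 in D (log2 -4.65), with -4.10 in the other cells. Cfc1, the Nodal co-receptor gene Cryptic, was at 0.0149, 0.0311 and 0.0171 against a D median of 0.246 (log2 -3.58), with -4.20 in the other cells. Areg, an EGF-family ligand, was higher in B at 0.0328, 0.0673 and 0.0317 against at most 0.0138 (log2 2.76), with 2.995 in the other cells. Gm10260 and Tpm3-rs7 were at 0.0432 to 0.0463 and 0.0725 to 0.0836 in B and at 1.81 to 2.46 and 1.80 to 2.10 in D. These 2 have near-identical parent genes, between which reads can be split, so their values are uncertain.

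**Figure D3:**
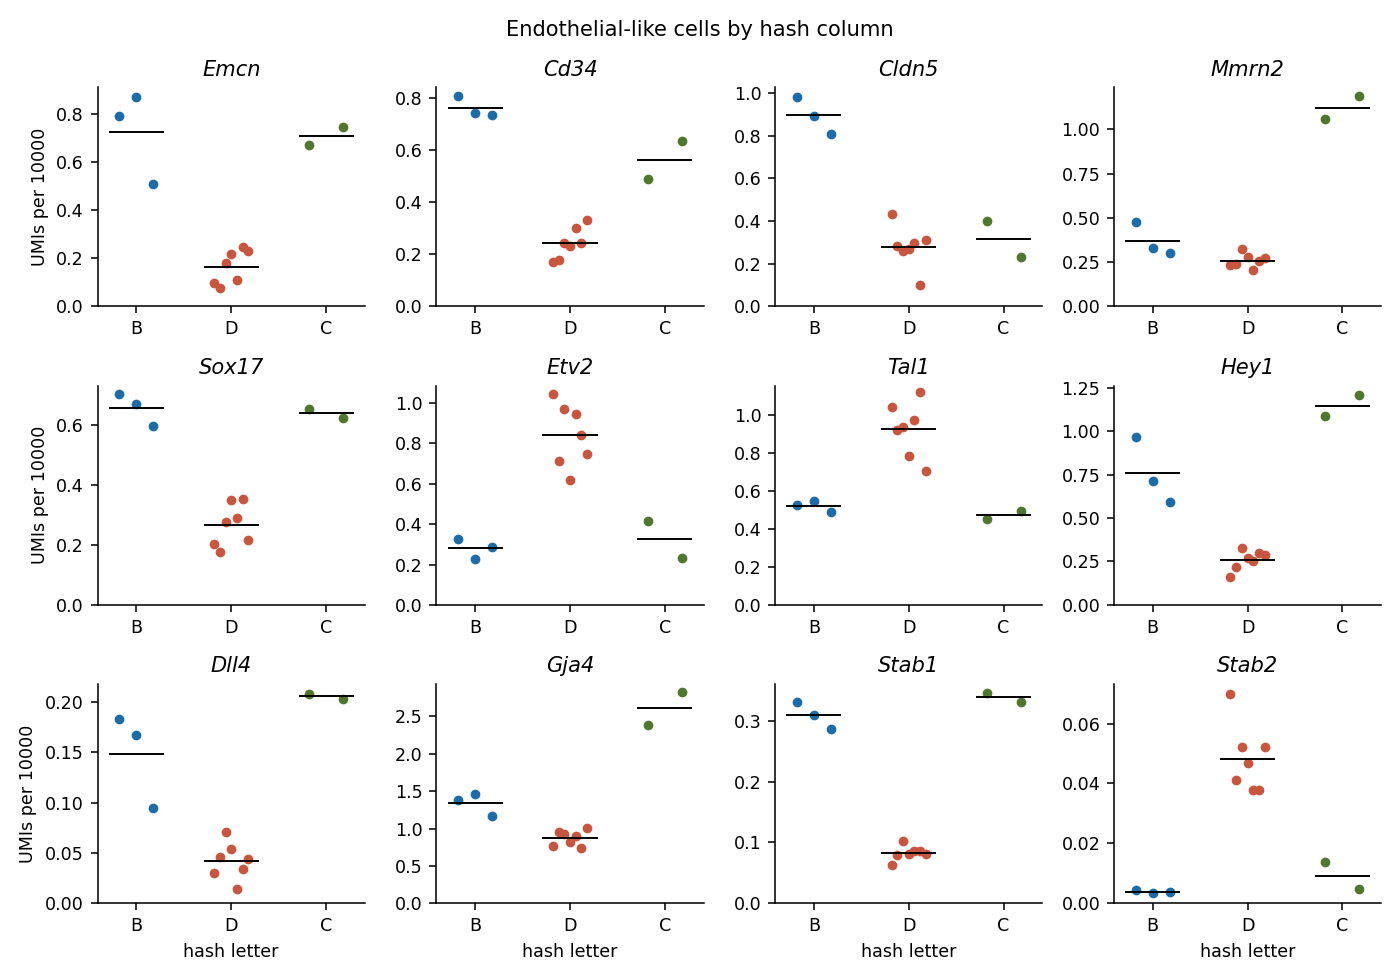
UMIs per 10000 of 12 listed genes in the endothelial-like cells of each hash column (points) with the mean of each letter (bar), on linear axes from 0. Emcn, Sox17, Dll4 and Stab1 are higher in both B and C than in every D column, and Etv2, Tal1 and Stab2 are lower, whereas Cldn5 is high in B alone and Mmrn2 and Gja4 are highest in C.

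The C columns shared part of this pattern. Against D, 24.5% of 10472 genes were called higher in C and 23.5% lower, 48% in all, and among single-hash cells 25.9% and 26.3%. The comparisons of B and C with D share the D columns, so their likeness is not independent. Of 20 endothelial receptor and adhesion genes, 17 were higher in C than in D and none lower, with a median log2 difference of 1.17. In single-hash cells 18 were higher and 1 lower. Cells with all 5 rule genes gave 17 of 20 higher and none lower, with a median of 1.06. The rule genes themselves had a median of 0.88, and the part of the fixed count that chose the cells was not tested. Emcn was at 0.674 in C1 and 0.750 in CB, a log2 difference of 2.11 (SE 0.22, adjusted p = 1.7e-06), and 3.76 in single-hash cells. Mmrn2, a matrix ligand of Cd93, was at 1.06 and 1.19, above every B and D column (log2 2.08, SE 0.10). Cldn5 was at 0.403 and 0.234 and overlapped with D, with a log2 difference of 0.05 (SE 0.28, adjusted p = 0.89).

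Of 13 arterial genes, 9 were higher in C than in D and 1, Hey2, lower, with a median of 1.23. In cells with all 5 rule genes, 8 of 10 were higher and none lower, with a median of 1.18. Gja4 was at 2.39 and 2.83, a log2 difference of 1.53 (SE 0.09, adjusted p = 3.7e-09) and 1.49 in single-hash cells. Hey1 was at 1.08 and 1.21 (log2 2.13) and Dll4 at 0.208 and 0.203 (log2 2.24, and 3.41 in single-hash cells). Gja5, the arterial connexin 40, was at 0.0648 and 0.0555 in C and at 0 to 0.0207 in D, with a log2 difference of 3.07 (SE 0.49). Sox18 reached 0.644 and 0.564 against a D median of 0.128 (log2 1.91), while Etv2 and Tal1 were lower in C, with log2 differences of -1.499 and -1.02. Fli1, called higher in B, did not differ by the test (0.01, adjusted p = 0.97), and Sox7 was lower in C (log2 -0.34).

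Epithelial keratin genes changed side with the choice of cells here. Krt8 was lower in C than in D (log2 -1.35, adjusted p = 0.0027), but was 0.36 in single-hash cells (adjusted p = 0.1), and Krt18 went from -1.06 (adjusted p = 0.0051) to 0.65 (adjusted p = 0.017). Hand1 stayed lower, at -2.41 and -2.02. Of the 5 definitive endoderm genes called lower in C, none was called lower in single-hash cells, where 2 genes were tested and 1 was higher.

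Between C and B, whose endothelial-like shares were alike, 17.9% of 11264 genes were called higher in C and 17.3% lower, 35.1% in all, and 18.4% each way in single-hash cells. Of the 20 receptor and adhesion genes, 6 were higher in C and 5 lower, with a median of 0.06. Cldn5 was lower (log2 -1.64, SE 0.16, adjusted p = 3.1e-06), and Mmrn2 was higher by 1.56 and Clec14a, a further Mmrn2 receptor, by 1.89. Kdr, Flt1, Tek, Tie1 and Emcn were not called, with log2 differences from -0.08 to 0.14, although Tie1 was called in single-hash cells (0.30, adjusted p = 0.01). Among the transcription factors Sox18 and Klf4 were higher (1.02 each) and Fli1 and Sox7 lower (-0.74 and -0.71). Gja4 was higher by 0.92 and Hey1 by 0.56, while Jag2, a Notch ligand gene, was lower (log2 -1.74), and so was Aplnr (-0.66).

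The matrix genes Nid1 and Sparc were lower in C than in B (log2 -0.67 and -0.58), and Lama4, the laminin alpha chain of vessel walls, was higher (0.69). Angiogenic ligand genes parted, with Vegfa lower (-0.90) and Vegfc and Angpt1 higher (1.25 and 1.51). Of 7 erythroid genes, 6 were higher in C. Hbb-bh1 was at 1.45 and 2.03 in C and at 0.198, 0.0846 and 0.0926 in B, a log2 difference of 3.76, and it was 3.65 in the other cells, which in C held the erythroid markers at 37.8 to 46.7 in sum. All 4 pericyte genes tested were also higher in C, 2 of 4 in single-hash cells, with Acta2, smooth muscle actin, at 1.79. The 6 listed pericyte genes stood at 4.34 to 6.91 in sum against 1.59 to 2.28 in B. The part of free or mixed-in RNA in these values was not tested.

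The largest differences between C and B outside the lists were of near-identical copies or of genes nearly at 0 in 1 letter. Ftl1-ps1, a ferritin pseudogene, was at 45.9 and 46.8 in C and at 0.649, 0.302 and 0.617 in B, and Eno1b, a copy of the enolase gene, at 2.61 and 2.70 against 0.0433, 0.0224 and 0.0512. Both differed as much in the other cells (log2 5.92 and 5.61), and reads of their parent genes may be split, so they are uncertain. Nts, neurotensin, a secreted peptide, was lower in C, at 0.0432 and 0.0151 against 0.406, 0.463 and 0.301 in B (log2 -4.02, SE 0.29, adjusted p = 1.9e-07), with -1.25 in the other cells. Tm4sf1, a membrane protein of endothelial cells, was at 0.00589 and 0.00188 against 0.0403, 0.0397 and 0.0548 (log2 -3.81).

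Lyve1 (chr7:110850607-110863239, GRCm38) encodes the hyaluronan receptor that contrasts the cells next. At least 1 Lyve1 UMI was found in 295 of the 1741 endothelial-like cells (16.9%) and in 0.779% of the other cells, whose median depth was higher. Of these cells 130 had exactly 1 UMI and 165 had 2 or more, up to 87. By column the share was 36.0% in C1 and 36.1% in CB, 9.55%, 5.26% and 7.11% in B1, B2 and B3, and 1.75% to 10.2% in D. Its level was 0.582 and 0.660 UMIs per 10000 in C, 0.0403, 0.0293 and 0.0755 in B and 0.00669 to 0.0359 in D. C was above all other columns, and B and D overlapped.

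The C columns were higher than D by a log2 difference of 4.86 (SE 0.22, adjusted p = 2.4e-10) and than B by 3.56 (SE 0.19, adjusted p = 7.8e-09). The B to D difference was 1.28 (SE 0.39, adjusted p = 0.014), and in single-hash cells Lyve1 did not pass the filter on low counts for that pair. The other cells of C also had more Lyve1, a UMI in 1.38% and 2.25% of cells against 0.332% to 1.17% in the remaining columns. Prox1 and Pdpn, which mark lymphatic vessels beside Lyve1, were not called between any pair of letters, except that Prox1 was called between C and D in single-hash cells (adjusted p = 0.011).

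**Figure D4:**
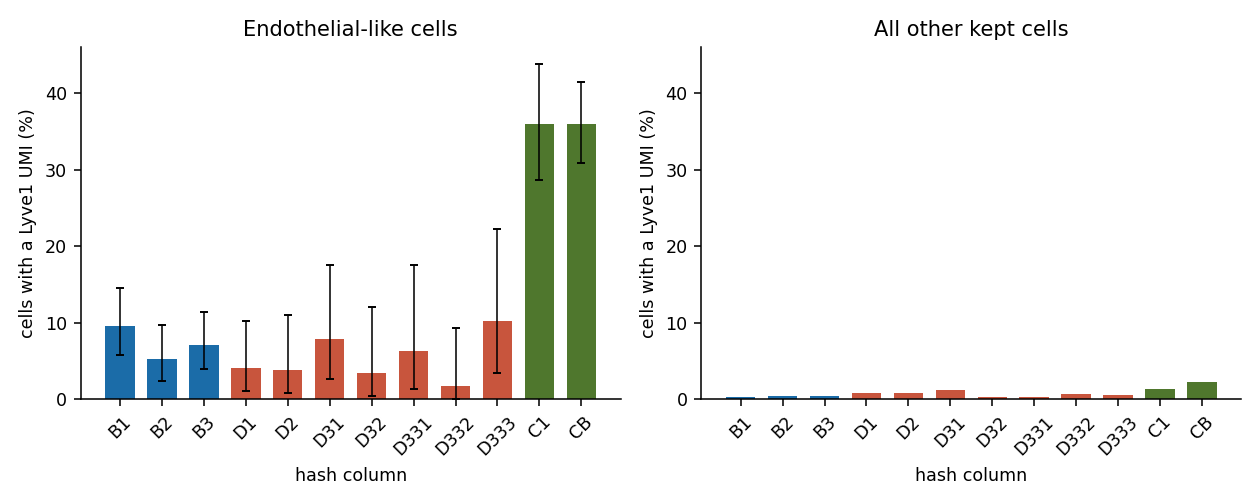
Percent of cells with at least 1 Lyve1 UMI in each hash column, for endothelial-like cells (left) and all other kept cells (right), with exact 95% binomial intervals for counting error on the left. C1 and CB stand at 36.0% and 36.1%, all other columns at or below 10.2%.

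Lyve1-positive cells, with at least 1 UMI, were compared with Lyve1-negative cells of the same column. In 7 columns both classes had at least 5 cells, which gave 231 positive and 956 negative cells, and the column was a block in edgeR's test. Of 10619 genes, 6 were called higher in the positive cells and 1 lower (0.0565% and 0.00942%, 0.0659% in all), and 906 had an unadjusted p under 0.05. Lyve1 itself chose the classes and is left out. Over all 295 positive and 1446 negative endothelial-like cells, not only those tested, the medians were 30682 and 36326.5 UMIs. The C columns, which held most positive cells, also had the lowest median depth, 26125 in C1 and 26963 in CB. These pooled medians therefore do not compare depth within a column.

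The 6 genes higher in positive cells were Apoe, Cdkn2a, Gimap5, Clu, Arhgdib and Ptp4a3, each higher in 7 of 7 columns. In D31 and D333 the positive class was only 5 cells each and also held more epithelial RNA. Krt8 was at 9.37 and 6.34 there against 2.68 and 2.54 in negative cells, and Epcam at 1.61 and 0.866 against 0.0931 and 0.0182. In B1, B2, B3 and CB, Krt8 was lower in the positive cells. The part of mixed droplets in the D31 and D333 values was not tested. Apoe, a lipid carrier, was at 21.6, 15.5 and 15.5 UMIs per 10000 in the positive cells of B1, B2 and B3 and at 15.8, 14.5 and 12.2 in the negative cells, at 16.7 and 12.8 against 7.89 and 7.09 in D31 and D333, and at 20.3 and 20.9 against 14.8 and 14.2 in C1 and CB. The log2 difference was 0.51 (adjusted p = 0.014). Apoe was high in both classes, so this was a shift in level.

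Cdkn2a, which encodes the cell cycle inhibitors p16 and p19, was at 0.901 and 1.10 in the positive cells of C1 and CB against 0.401 and 0.534, at 0.513, 0.433 and 0.526 against 0.318, 0.316 and 0.330 in B, and at 1.16 and 0.589 against 0.183 and 0.118 in D31 and D333. Its log2 difference was 1.11. Gimap5, a GTPase of the family that also holds Gimap4 and Gimap6, had 1.08, with 0.484 and 0.384 against 0.180 and 0.220 in C. Clu, the secreted chaperone clusterin, had 0.81, Arhgdib 0.77 (adjusted p = 0.047), and Ptp4a3, a phosphatase, 0.63.

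Hbb-bh1 was the 1 gene called lower (log2 difference -1.70, adjusted p = 0.003). It was at 0.344 and 1.25 in the positive cells of C1 and CB and at 2.13 and 2.48 in the negative cells, and at most 0.0826 against 0.0863 to 0.250 in the B and D columns. After thinning, its difference was 0.94 in the other direction and not called (adjusted p = 0.285).

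Other listed genes were not called. The 5 rule genes had log2 differences from 0.01 to 0.17, the 20 receptor and adhesion genes a median of 0.07 and the 19 transcription factor genes -0.07, beside -0.01 over all genes. Among the 9 lymphatic and sinusoidal genes tested the median was 0.16, and among the 6 definitive endoderm genes tested it was 0.85. Mrc1, a mannose receptor, had 0.71 (adjusted p = 0.42), while Stab1 had 0.21 and Flt4, the VEGF-C receptor gene, 0.25. Reln, a secreted matrix protein of lymphatic vessels, had -0.98 (adjusted p = 0.57) and Stab2 -0.54. At the thinned depth Stab1 was found in 27.8% of 108 cells with Lyve1 and 12.4% of those without, higher in all 4 columns with enough cells. Mrc1 was found in 9.26% against 4.86%, higher in 2 columns and lower in 2, and Stab2 in none against 0.924%, lower in 2 columns and higher in none.

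The calls rested on few columns. Without C1 no gene was called, and without B3, B1 and CB 3, 4 and 6 were, whereas B2, D31 or D333 left out gave 12, 10 and 8. These fits tested 10049 to 10759 genes. With no column block none of 9432 genes was called. With a positive cell defined by 2 or more UMIs, 61 of 10408 genes were called, all 7 above included. The C columns alone gave 43 calls of 10223 genes, 6 of the 7 included. The B columns alone gave 8 of 9976, of which 1 was shared with C. In each setting the calls were a small part of the genes tested.

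**Figure D5:**
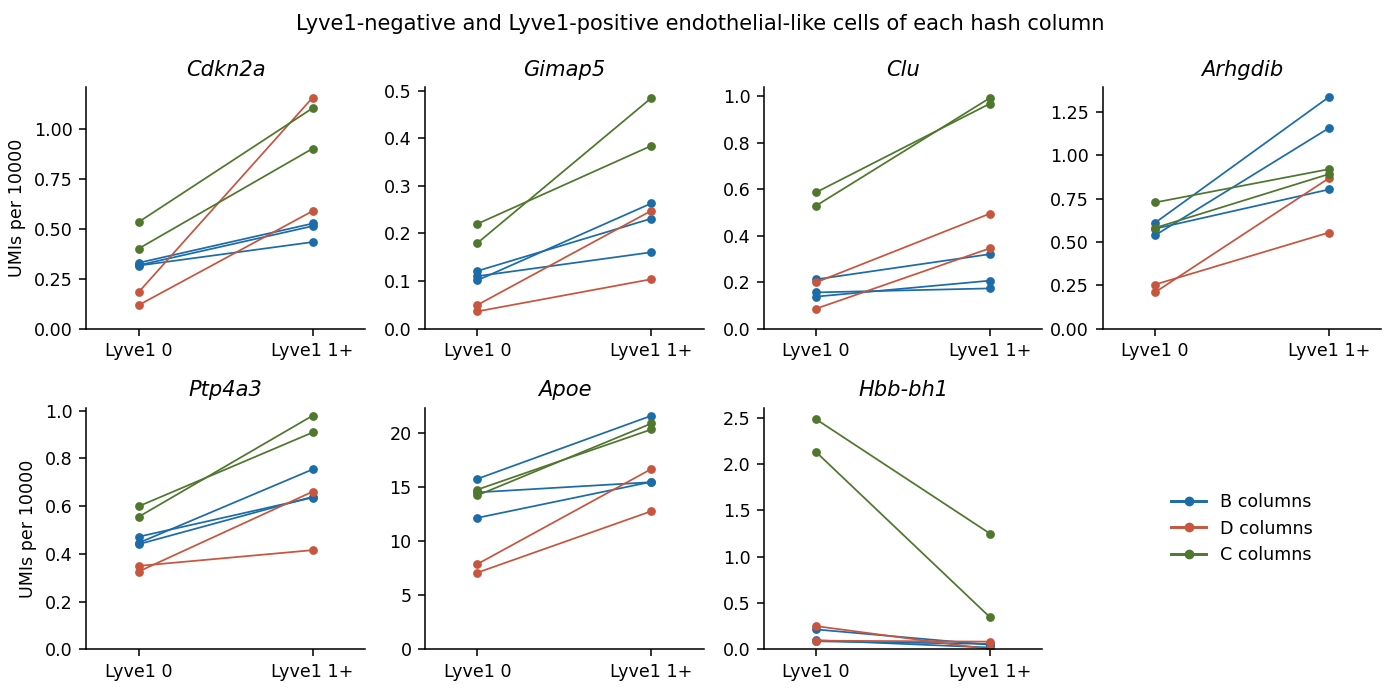
UMIs per 10000 in the Lyve1-negative (0 UMIs) and Lyve1-positive (1 or more) endothelial-like cells of the 7 hash columns tested, joined by a line per column, for the 7 genes called. The 6 genes are higher in the positive cells of all 7 columns and Hbb-bh1 is lower in all 7.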

How the data were processed

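Single-cell RNA was measured in 1 pooled embryoid body library of 20134 barcodes and 31053 genes, with a lipid hash table. The deposited UMI counts came from Cell Ranger 3.1.0, per the file headers, and the submitters' processing notes name the build mm10. The deposited hash values are counts per barcode and column. From these, cells were filtered, chosen by the 5 rule genes and assigned to the largest hash column. The members, gene lists and tests were chosen with earlier results of these data known. UMIs of members were summed per hash column and tested with edgeR 4.0.16 in R 4.3.3 (quasi-likelihood test, TMM, filterByExpr, Benjamini-Hochberg adjustment over all genes), after a check on simulated data, and DESeq2 1.42.0 was an alternative. Shares were compared by exact permutation of columns (scipy 1.17.1), and intervals are exact binomial and cover counting error only. Doublets were scored with Scrublet in scanpy 1.11.5 (expected share 10%, 30 components) and kept in the main results. Named genes were those of the 23 lists, the 10 largest called differences per direction that held in every column, and the 20 largest ratios to other cells, of which the text names a part. Column levels are summed UMIs per 10000, and levels against other cells are means over cells. Each SE of a log2 difference was derived from edgeR's test and was not fitted directly. It is the absolute log2 difference divided by the square root of the F statistic. Alternatives on single-hash cells, on cells with all 5 rule genes, on B or C columns alone and on pooled D3 columns were chosen after seeing the data. The numbers 1 and 2 are shared by B and D columns. The difference between B1 and B2 had a correlation of 0.0023 with that between D1 and D2 over 10332 genes. With only these columns, this cannot tell whether the numbers pair them.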

Additional observations from a re-analysis of the deposited data

Results flagged for a closer look

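Over the 7 D columns, 81 quantities were examined for a column far from the others. They were the endothelial-like share and, in endothelial-like cells, the Lyve1-positive share, median UMIs, the Scrublet share and levels of single genes. In 6 such a column was found, all gene levels, where chance gives about 1 in 20. D1 stood apart in 4 of them. Its Kdr was 2.48 UMIs per 10000, where the other D columns had 1.86 to 2.10, and its Myb was 0.164, where they had 0.0401 to 0.0831. Its Krt8 was 0.923, below their 2.74 to 3.89, and its Hba-x was 1.81, above their 0.0762 to 0.378. D331 stood apart in Gm33370, at 0.0207 where the others had 0.00437 to 0.0103, and in D830030K20Rik, at 0.0862 where they had 0.0410 to 0.0602.

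The Lyve1 contrast differed between the C and B columns for 1 of 10911 genes, Mt1, a metallothionein (difference of log2 differences 2.12, edgeR adjusted p = 0.0477). Mt1 was at 1.38 and 0.458 UMIs per 10000 in the positive cells of C1 and CB and at 0.303 and 0.205 in the negative cells. In B1, B2 and B3 it was at 0.642, 0.318 and 0.583 against 0.569, 0.496 and 1.12. At an unadjusted p under 0.05 there were 388 genes.

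Kept cells with no assigned hash column entered no comparison. Of these 2221 cells, 219 (9.86%) were endothelial-like, and their median depth was 46220 UMIs, against 34685 for endothelial-like cells with a hash.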

How the results depend on the processing

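The B to D and C to D ratios of the endothelial-like share kept their direction in every alternative run, and ranged from 4.15 to 4.70 and from 3.57 to 5.16 with 1 column left out. With rule genes needing only 1 UMI they were 2.68 and 2.98. The C to B ratio, 1.01, lay under 1 with at least 4 of 5 rule genes (0.959), without Scrublet doublets (0.981), with 1 hash column above background (0.992), with both (0.992) and after thinning (0.922), and ran from 0.824 to 1.19 with 1 column left out.

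Genes called between B and D fell from 4308 of 10327 to 2374 of 8473 in cells with all 5 rule genes. With columns B1, B2, D1 and D2 alone, 2775 of 10606 were called. With a replicate block on the numbers of those 4 columns it was 2997, but the labels do not say that a shared number pairs columns. With 1 column left out the count was 3451 to 4488. Between C and D, 5031 of 10472 became 2813 of 8691 with all 5 rule genes, and 3225 to 5233 with 1 column left out, the lowest without CB. Between C and B, 3958 of 11264 became 2421 of 11264 with DESeq2, and 2458 to 3688 with 1 column left out, the lowest without CB. Krt8 between C and D reversed to 0.36 in single-hash cells, and Krt18 to 0.65 there and to 0.15 without Scrublet doublets.

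The 7 calls of the Lyve1 contrast, of 10619 genes, became 43 of 10223 in C columns only and 13 of 10619 with DESeq2. A hash ratio of 3 gave 35 of 10669, no filter 174 of 18214, and 2 or more Lyve1 UMIs 61 of 10408. Without Scrublet doublets it was 13 of 10404, with 1 hash column above background 15 of 10224, and with both 19 of 10159. After thinning 3 of 6608 were called, and 0 of 9432 with no replicate block on the hash column. With 1 column left out it was 0 to 12. Hbb-bh1 reversed to 0.94 after thinning. The cause of these shifts was not tested. Columns with 20 to 66 endothelial-like single-hash cells limit what could be seen in D.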
